A study of Mus musculus with 12 samples.

Results

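The genes described here are Lrp2, Pdzk1, Slc22a7, Tmem174, Ces1d and Cyp7b1, a group named for the brush border and endocytosis of the kidney proximal tubule. They were taken by gene symbol from the annotation of the arrayed clones, and all 6 were measured. They were covered by 8 clones of 15600, or 6 genes of 6786, with 2 clones each for Lrp2 and Pdzk1 and 1 clone for each of the others. Because these genes were chosen with their values on the same arrays already known, their differences between groups and between mice are given as descriptions, without a test.

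The series addressed the effect of water restriction on expression in the renal medulla of the mouse, the inner kidney, where urine is concentrated. RNA of 3 water-restricted mice (WR1 to WR3) and 3 control mice (C1 to C3) was amplified from total RNA and hybridised in pairs to 2-colour arrays, 1 mouse in Alexa Fluor 546 and the other in Alexa Fluor 647. Every water-restricted mouse met every control mouse, giving 9 pairs. For 3 pairs (WR1 with C3, WR2 with C1, WR3 with C2) an array was made in each dye orientation, so 12 arrays were measured, 6 per orientation. The labels used here give no strain, sex, age, genotype or length of restriction, and name the control mice only as controls.

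The proximal tubule takes back most of the filtered solutes through a dense apical brush border. Its large endocytic receptor, megalin, the product of Lrp2, clears filtered proteins from the tubule fluid together with cubilin and the adaptor protein Dab2. Scaffold proteins with PDZ domains, among them the product of Pdzk1, hold transporters at the brush border. Proximal tubules lie in the cortex and, as their straight S3 segment, in the outer stripe of the outer medulla. Slc22a7 encodes an organic anion transporter and Tmem174 a membrane protein of the proximal tubule. Ces1d encodes a carboxylesterase, which cleaves ester bonds in lipids and drugs, and Cyp7b1 an oxysterol hydroxylase of bile acid synthesis. The name of the group thus covers Lrp2 and Pdzk1 by function, while Ces1d and Cyp7b1 are enzymes of the cell interior.

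RefSeq promoter windows (GRCm38.p6, from 250 bases before to 50 after a start site) were at hand for 2 of the 6 genes, Lrp2 and Pdzk1. There were 3 such windows, and the first of each gene is printed. These genes are shown because no window was at hand for the others of the group. The Lrp2 stretch is chr2:69586030-69586279 on the minus strand, the Pdzk1 stretch before the start is chr3:96829815-96830064 on the plus strand, and the Pdzk1 stretch after the start is chr3:96830069-96830098 on the plus strand. Each is written 5′ to 3′ in lower case, with capitals for matches to the motifs searched.
Lrp2 promoter: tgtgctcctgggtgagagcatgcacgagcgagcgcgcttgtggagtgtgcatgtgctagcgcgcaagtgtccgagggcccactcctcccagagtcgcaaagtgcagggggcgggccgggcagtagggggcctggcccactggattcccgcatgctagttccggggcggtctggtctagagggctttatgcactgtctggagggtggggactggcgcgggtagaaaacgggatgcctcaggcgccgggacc
Pdzk1 promoter: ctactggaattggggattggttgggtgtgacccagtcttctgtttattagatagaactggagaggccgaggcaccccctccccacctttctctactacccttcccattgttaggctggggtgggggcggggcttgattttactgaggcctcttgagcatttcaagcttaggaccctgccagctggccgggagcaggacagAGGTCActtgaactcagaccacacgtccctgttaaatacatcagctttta
Pdzk1 after the start: aatctttgtcCAAAGTCCAgtgagttccaa

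Both strands were searched for 3 motifs that were chosen after the sequences had been seen. The core CAAAGTCCA, bound by HNF4 factors, began at base 15 after the Pdzk1 start and is present in 0.475% of 32851 promoter windows. The nuclear receptor half-site AGGTCA began 50 bases before the Pdzk1 start and is present in 16.3% of windows. Both matches lie in the Pdzk1 window printed here. The HNF1 half-site GTTAAT is present in 7.10% of windows and was found in no window of either gene. None of the 3 motifs was found for Lrp2. Windows were searched whole, though for Lrp2 only the 250 bases before the start are printed. These are matches of letters, and no binding was measured here.

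The deposited value of each spot is a log2 ratio of both channels. The sign was changed on the 6 arrays where Alexa Fluor 647 marked the water-restricted mouse, so that all ratios run as where Alexa Fluor 546 marked it. If Alexa Fluor 546 is the numerator of the ratios, positive values are higher in water-restricted mice. If Alexa Fluor 647 is the numerator, they are lower. Which of these holds was not settled by the sources used here. The sizes of differences and the correlations between genes do not depend on it, since all values would turn together, but every highest or lowest mouse named below would become the lowest or highest. All of them depend on the arrays having been deposited by dye. If the deposited ratios already ran from 1 condition to the other, the difference of Lrp2 would be -0.018, of Pdzk1 0.04, of Slc22a7 0.61, of Tmem174 -0.13, of Ces1d -0.10 and of Cyp7b1 -0.05 on the log2 scale.

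The medians of the arrays ran from -0.04 to 0.06. Spots spread with an SD of 0.515 to 0.764 on 11 arrays and of 1.21 on that of WR2 against C2. Within arrays, adjacent spots correlated at 0.362 to 0.684, and over all clones the arrays of a dye-swapped pair correlated at 0.14, -0.13 and 0.13 once turned. A relative level for each mouse was fitted from the 12 arrays, with the 6 levels of a gene summing to 0. A ratio gives no absolute level, so whether markers of medullary cells were present could not be read. By limma, 0 of 6786 genes (0%) passed an adjusted p of 0.05 between the groups of 3 mice, with 337 genes at an unadjusted p under 0.05 and a smallest adjusted p of 0.183.

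Between the groups, 5 of the 6 genes had a positive difference, against 50.7% of all genes. Their median difference was 0.98 on the log2 scale, against 0.003 over all genes. Ces1d, Pdzk1 and Lrp2 had differences above 1, a size found in 20 genes or 0.295% of all. Levels of the groups did not overlap, with the water-restricted side positive, for these same 3 genes, against 5.94% of all genes. Since the genes were selected on this contrast, nothing is read from these counts. In bulk RNA, fewer cells of a type and less RNA per cell cannot be told apart.

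**Figure D1:**
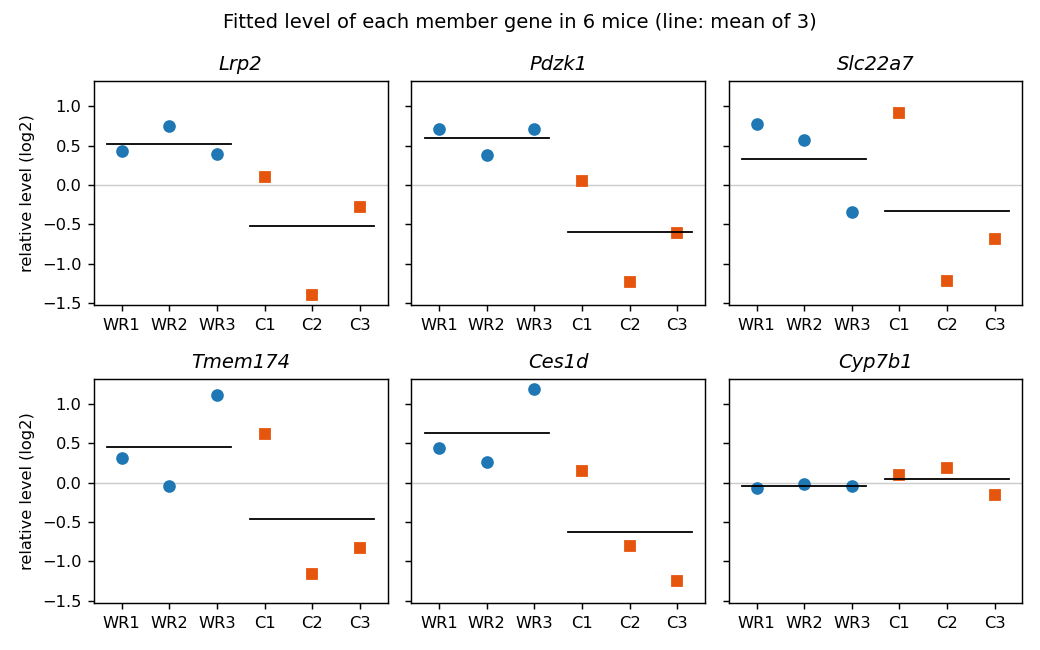
Relative level (log2, summing to 0 over 6 mice) of each of the 6 genes in water-restricted (blue circles) and control mice (orange squares), with a line at each group's mean of 3 mice. For Lrp2, Pdzk1 and Ces1d all 3 water-restricted mice lie above all 3 controls, C1 lies nearest to them, and the levels of Cyp7b1 stay between -0.16 and 0.18.

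Lrp2, the endocytic receptor, had levels of 0.43 in WR1, 0.75 in WR2 and 0.40 in WR3. In the controls it had 0.10 in C1, -1.40 in C2 and -0.27 in C3. The water-restricted mice lay close together and above every control, and C2 lay far below the other mice. The difference between group means was 1.05 (SE 0.46, n = 3 mice per group). Across arrays the ratio ran from 0.24 through a median of 0.78 to 2.63 and was positive on 12 of 12. In the order of levels, WR1 and WR3, as well as WR3 and C1, differed by no more than the technical standard error of their gap (0.316 and 0.300), and WR2 differed from WR1 by barely more than it.

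The 2 Lrp2 clones differed on 1 array. On the array of WR2 against C2, the widest of the 12, clone 1 read 4.78 (spots of 5.14 and 4.42) and clone 2 read 0.49. Over 12 arrays the clones correlated at 0.17, and over the 11 arrays without that one at 0.80. Clone 1 gave a difference of 1.28 (SE 0.84, n = 3 mice per group) with overlapping groups, and clone 2 gave 0.82 (SE 0.23) with groups apart. Without that array, the differences were 0.89 for clone 1, 0.86 for clone 2 and 0.88 (SE 0.29) for the gene, and the level of C2 was -0.97. Both clones were then apart between groups.

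Pdzk1, the brush border scaffold, had levels of 0.71, 0.38 and 0.71 in WR1, WR2 and WR3, and of 0.05, -1.23 and -0.61 in C1, C2 and C3. The 3 water-restricted mice again lay above the 3 controls, in the control order C1, C3, C2 that Lrp2 also had. The difference was 1.20 (SE 0.39, n = 3 mice per group). Its ratios ran from 0.07 through a median of 1.29 to 2.11 and were positive on 12 of 12 arrays. Clone 1 gave 1.28 (SE 0.42) and clone 2 gave 1.11 (SE 0.37), and the clones correlated at 0.80 over 12 arrays. WR1 and WR3 differed by less than the technical standard error of their gap, while the other 4 gaps between neighbouring mice exceeded their technical standard error. Of all genes, 1.46% were positive on 12 of 12 arrays, as Lrp2 and Pdzk1 were. This count comes from the contrast on which the genes were selected and is given as a description.

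Slc22a7, the organic anion transporter, had levels of 0.77, 0.57 and -0.34 in WR1, WR2 and WR3, and of 0.91, -1.23 and -0.68 in C1, C2 and C3. The groups overlapped, as C1 had the highest level of the 6 mice and WR3 lay below WR1 and WR2. The difference was 0.67 (SE 0.73, n = 3 mice per group), less than its standard error. C1, WR1 and WR2 followed each other within the technical standard error of their gaps.

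The ratio of Slc22a7 also depended on the dye. It averaged 1.32 on the 6 arrays where Alexa Fluor 546 marked the water-restricted mouse and 0.04 on the 6 where Alexa Fluor 647 did, and ran from -1.96 to 2.20 over all 12. Its dye term, which the choice of genes did not use, was 0.64 (SE 0.10, limma adjusted p = 0.0228 over 15600 clones). It was the 1 clone of the 8 past the threshold, where 3.38% of all clones passed. The dye terms of the other 7 clones ran from -0.16 to 0.12, with limma adjusted p from 0.275 to 0.931. When any 1 mouse was left out, the dye term of Slc22a7 was 0.51 to 0.76 and missed the threshold (limma adjusted p from 0.132 to 0.284), and 1 or 2 clones of all passed. With the ratios read as already turned it was 0.68 and also missed the threshold (limma adjusted p = 0.234).

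Tmem174, the proximal tubule membrane protein, had levels of 0.31, -0.04 and 1.11 in WR1, WR2 and WR3, and of 0.62, -1.16 and -0.84 in C1, C2 and C3. The groups overlapped because C1 lay between WR3 and WR1. The difference was 0.92 (SE 0.64, n = 3 mice per group). Ratios ran from -0.49 through a median of 0.94 to 2.54 and were positive on 9 of 12 arrays. The 3 negative arrays were both arrays of WR2 with C1 (-0.49 each) and the array of WR1 with C1 (-0.47). The order was WR3, C1, WR1, WR2, C3, C2, and all 5 gaps between neighbouring mice exceeded 1 technical standard error, which covers array noise and not the spread between animals.

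Ces1d, the carboxylesterase, had levels of 0.45, 0.26 and 1.19 in WR1, WR2 and WR3, and of 0.15, -0.80 and -1.25 in C1, C2 and C3. The groups did not overlap, but WR2 and C1 differed by 0.12, within the technical standard error of 0.155. The difference was 1.27 (SE 0.50, n = 3 mice per group), with ratios from -0.25 through a median of 1.26 to 2.34, positive on 11 of 12 arrays. WR3 was the highest mouse and C3 the lowest, where C2 was the lowest for Lrp2, Pdzk1, Slc22a7 and Tmem174.

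Cyp7b1, the oxysterol hydroxylase, stood apart from the other 5. Its levels were -0.06, -0.01 and -0.05 in WR1, WR2 and WR3, and 0.10, 0.18 and -0.16 in C1, C2 and C3. No gap between neighbouring mice exceeded its technical standard error. The difference was -0.08 (SE 0.10, n = 3 mice per group), and ratios ran from -0.55 to 0.57, with 4 of 12 positive. The adjacent spots of its clone correlated at -0.17 over the 12 arrays, against 0.61 to 0.99 for the other 7 clones. On the array of WR1 against C3 with Alexa Fluor 546 on WR1, its spots read 1.20 and -0.97. The correlation of the spots without that array was not computed.

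**Figure D2:**
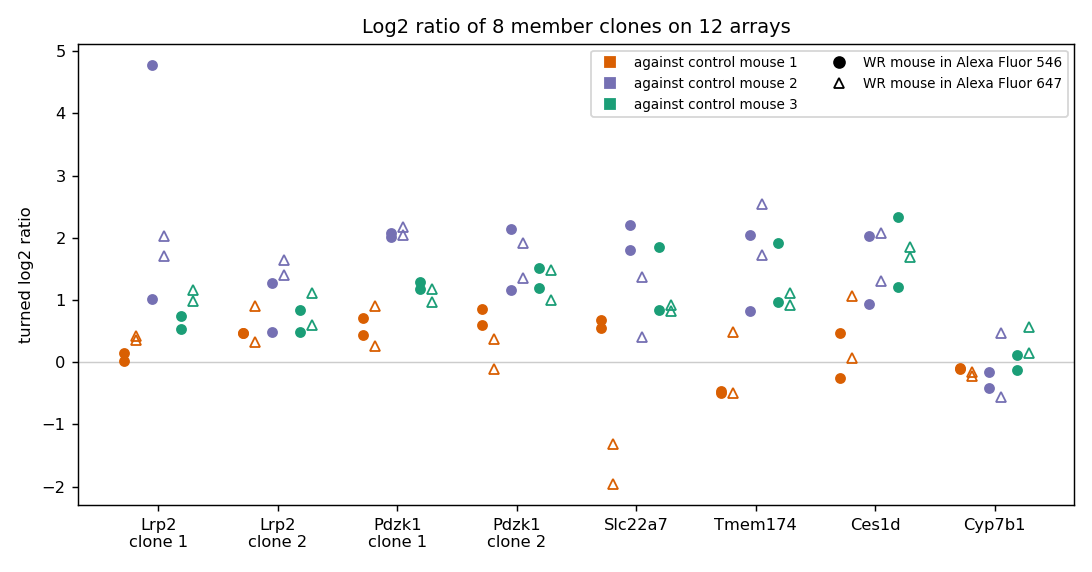
Turned log2 ratio of each of the 8 clones on 12 arrays, coloured by the control mouse on the array, with filled circles where Alexa Fluor 546 marked the water-restricted mouse and open triangles where Alexa Fluor 647 did. The lowest ratio of each clone except Cyp7b1 is against C1, Slc22a7 splits by dye against C1, and Lrp2 clone 1 reaches 4.78 on 1 array.

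The size of the difference depended on the control mouse. Against C1, the mean of the 3 water-restricted mice differed by a median of 0.14 over the 6 genes, with 3 of 6 positive. It was 0.55 for Pdzk1, 0.49 for Ces1d and 0.42 for Lrp2, but -0.58 for Slc22a7 and -0.16 for Tmem174. Against C2 the median was 1.59, with 5 of 6 positive and values from 1.43 for Ces1d to 1.92 for Lrp2 among them. The value of Lrp2 includes the array of WR2 against C2, where clone 1 read 4.78 and clone 2 read 0.49. Without that array, the level of Lrp2 in C2 was -0.97, where it was -1.40 with all arrays. Against C3 the median was 1.11, from 0.12 for Cyp7b1 to 1.88 for Ces1d, and 6 of 6 were positive.

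The range over the 3 controls exceeded that over the 3 water-restricted mice in 6 of 6 genes, against 51.9% of all genes, a description of values on which the genes were selected. In Cyp7b1 the ranges were 0.34 and 0.05, and no gap between neighbouring mice exceeded its technical standard error. Lrp2 clone 2 alone ranged less in the controls (0.529) than in the water-restricted mice (0.568). The control range was 1.28 against 0.33 for Pdzk1, 1.77 against 1.15 for Tmem174, and 2.13 against 1.11 for Slc22a7. With the sign used here, C1 was the highest control in 5 of 6 genes, where this held for 33.4% of all genes, and C2 the lowest mouse of all in 4 of 6, against 26.3%. Highest and lowest trade places if Alexa Fluor 647 is the numerator. With the ratios read as already turned, the controls ranged wider in 0 of 6 genes, C1 was the highest control in 1 and C2 the lowest mouse in 0. Averaged over the 6 genes, levels were 0.43, 0.32 and 0.50 in WR1, WR2 and WR3 and 0.32, -0.94 and -0.63 in C1, C2 and C3. The average of C1 was thus at that of WR2, and C2 and C3 lay below the rest. Left out in turn, C2 moved the median difference from 0.98 to 0.59 and C1 to 1.41. Single genes moved by more than 1.5 times without C2 (Lrp2 to 0.61, Slc22a7 to 0.22, Tmem174 to 0.57), without C1 (Slc22a7 to 1.29, Tmem174 to 1.45), and without WR3 (Slc22a7 to 1.002, Tmem174 to 0.59). Lrp2 clone 1 gave 0.55 without C2, and Cyp7b1 gave -0.01 without C2 and -0.18 without C3. Over all genes, 14 (0.206%) differed between mice of the same group by limma's F-test at an adjusted p of 0.05, a test whose error is technical. Without any 1 mouse 0 to 5 genes did, and without the array of WR2 against C2 50 did.

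**Figure D3:**
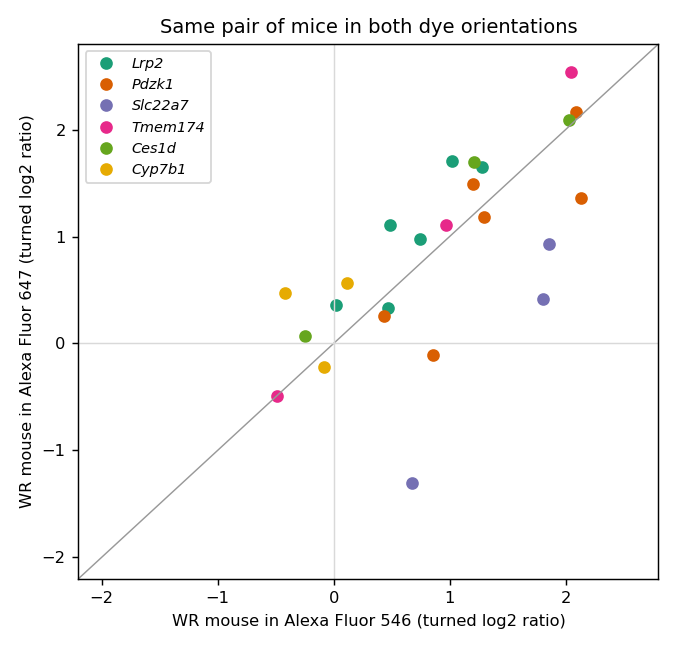
Turned log2 ratio of the 8 clones for the 3 pairs of mice hybridised in both dye orientations, with Alexa Fluor 546 on the water-restricted mouse for the x axis and Alexa Fluor 647 for the y axis. The line marks equal values, 20 of 24 points have the same sign on both arrays, and the 3 Slc22a7 points lie below the line.

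Arrays of the same 2 mice with exchanged dyes gave the same sign in 20 of 24 pairings of a clone with a pair of mice, where 51.5% of pairings over all clones did. The clones were chosen on ratios turned in this way, so this is a description. Both orientations correlated at 0.69 over the 24 points, which share 6 arrays and 6 genes, and their median gap was 0.356. Pdzk1 clone 2, Slc22a7 and Ces1d changed sign in the pair of WR2 with C1, and Cyp7b1 in that of WR3 with C2. For Slc22a7 with WR2 and C1, the ratio was 0.68 in 1 orientation and -1.31 in the other. Tmem174 repeated closely in that pair, at -0.49 in each. The median residual SD between arrays was 0.225 over the 6 genes and 0.294 over all genes.

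Across the 12 arrays, with the dye term removed, Tmem174 ran with Ces1d at a correlation of 0.90 and with Pdzk1 at 0.90. Lrp2 and Pdzk1 correlated at 0.72, Pdzk1 and Slc22a7 at 0.77, and Pdzk1 and Ces1d at 0.72. Lrp2 and Ces1d were less alike, at 0.36. The correlations of Lrp2 include the array of WR2 against C2, where its clone 1 read 4.78 and its clone 2 read 0.49. Correlations between genes without that array were not computed. Cyp7b1 correlated with the other 5 at -0.04 to 0.23. The arrays share mice and, for 3 pairs, both mice, so these values describe 6 animals.

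Of the genes outside the group, those whose ratios ran most like its mean over the 12 arrays were sought among 1155 genes with levels spanning at least 1. Gatm, an enzyme of creatine synthesis, had the highest correlation at 0.96. Its levels were 0.58, 0.49 and 1.15 in WR1, WR2 and WR3, and 0.65, -1.44 and -1.43 in C1, C2 and C3. C1 thus lay among the water-restricted mice, but Gatm was picked for running like the mean of the 6 genes. Levels and differences of all genes picked in this way are descriptions. Ddah1, which breaks down methylated arginines, correlated at 0.94, and Ces1f, a carboxylesterase of the same family as Ces1d, at 0.92. They were followed by Selenop, a selenium carrier, at 0.90, and by Rida and Osbpl8 at 0.89 each. The difference between groups was 1.48 (SE 0.73, n = 3 mice per group) for Gatm, 1.01 for Ddah1, 1.20 for Ces1f, 0.57 for Selenop, 0.72 for Rida and 0.59 for Osbpl8. Odc1, the first enzyme of polyamine synthesis, and Fam214a correlated at 0.94 and 0.92 with differences of 0.05 and 0.08. In both, C1 had the highest level of the 6 mice, 0.73 for Odc1 and 0.54 for Fam214a. The standard errors of these differences were 0.38 and 0.31 (limma adjusted p = 0.996 for each), which does not show that their group means were equal. Ces1 genes are close paralogs, and whether the clones of Ces1d and Ces1f detect each other's RNA was not tested.

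Of 25 other genes listed for the megalin pathway, 19 were measured, 15 with a positive and 4 with a negative difference. None passed by limma, none had an unadjusted p under 0.05, and the median was 0.10. Without the array of WR2 against C2 the split was 12 and 7. The megalin chaperone Lrpap1 had 0.37 (SE 0.32), the clathrin adaptor subunit Ap2m1 0.36 (SE 0.20), the transferrin receptor Tfrc 0.33 (SE 0.19) and the recycling endosome protein Rab11fip3 0.31 (SE 0.10, n = 3 mice per group). Cubilin was not among the genes measured. The general endocytic genes of this list are active in many cell types.

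Among scaffold and cytoskeletal genes of the brush border, 10 of 18 were measured, 6 positive and 4 negative, with a median of 0.05. Without the array of WR2 against C2, the split was 7 and 3 and the median 0.09. None passed by limma and 2 had an unadjusted p under 0.05. These were Pdzd3, another PDZ scaffold of the brush border, with 0.84 (SE 0.27, limma adjusted p = 0.771), and the actin bundler Pls1 with 0.71 (SE 0.33, limma adjusted p = 0.898). Cdhr5, a cadherin that links microvilli, had 0.62 (SE 0.37), with -1.03 in C2 and 0.30 to 0.32 in the water-restricted mice. Slc9a3r1, the scaffold NHERF1, had 0.26 (SE 0.22).

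Of 18 genes listed as brush border enzymes, 4 were measured. Car4, a membrane-bound carbonic anhydrase, had 1.31 (SE 0.25, limma adjusted p = 0.386), with 0.50, 0.45 and 1.02 in WR1, WR2 and WR3 and -0.32, -0.84 and -0.79 in C1, C2 and C3. All 3 controls lay below all 3 water-restricted mice for Car4. The peptidases Mme and Dpp4 had -0.28 and -0.03. Lap3, which the list includes although it is mainly a cytosolic peptidase, had 0.04. The list held 2 positive and 2 negative genes with a median of 0.01 (0.06 without the array of WR2 against C2), and none passed by limma, with 1 at an unadjusted p under 0.05.

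Genes listed as transporters of the proximal tubule, other than Slc22a7 and Tmem174, were measured for 4 of 53, and all 4 were positive. They were the amino acid transporter subunits Slc7a8 at 0.26 and Slc3a2 at 0.13, the peptide transporter Slc15a2 at 0.24 and the carnitine transporter Slc22a5 at 0.18, with a median of 0.21. None passed by limma and none had an unadjusted p under 0.05.

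Metabolic enzymes and proteins listed for the proximal tubule were measured for 7 of 52 genes, 6 positive and 1 negative, with a median of 0.67. None passed by limma, and 4 had an unadjusted p under 0.05. Besides Gatm, these were Miox, which degrades inositol, with 1.43 (SE 0.42, limma adjusted p = 0.553), the aminoacylase Acy3 with 1.03 (SE 0.44, limma adjusted p = 0.771), and Fah, of tyrosine breakdown, with 0.67 (SE 0.24, limma adjusted p = 0.771). Gatm was also among the genes that differed between mice of a group (limma F-test, adjusted p = 0.000713). Levels of Miox in C1, C2 and C3 were -0.64, -0.73 and -0.76, close together. The positive genes of this list include Calb1 (0.15), a calcium-binding protein better known from the distal tubule.

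Enzymes of oxysterols, bile acids and esters were measured for 4 of 27 genes beside Ces1d and Cyp7b1, 2 positive and 2 negative, with a median of 0.20. Ces1f had 1.20 (SE 0.55, limma adjusted p = 0.782) and its paralog Ces1b -0.06 (SE 0.08). Amacr, a racemase of bile acid synthesis, had 0.46, and Cyp39a1, another oxysterol hydroxylase, -0.48 (SE 0.22, limma adjusted p = 0.961). None passed by limma, and Ces1f and Cyp39a1 had an unadjusted p under 0.05.

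Of 18 transcription factors listed for the proximal tubule, Esrra at 0.65 (SE 0.34, limma adjusted p = 0.951) and Cux1 at -0.09 were measured. Esrra had an unadjusted p under 0.05 and neither passed by limma. Of markers of the early segments, Slc7a8 and Gatm were measured, with a median of 0.87, and of the S3 segment Acy3 and the flippase Atp11a (0.44), with a median of 0.74. None of these segment markers passed by limma. The S3 list also names Slc22a7 and Cyp7b1 of the group, which that median leaves out. Their differences were 0.67 (SE 0.73) and -0.08 (SE 0.10). The lists for both segment markers, brush border scaffolds, brush border enzymes, transporters and metabolism together name 144 genes outside the group, of which 26 were measured. They held 19 positive genes, Calb1 and Lap3 among them, and 7 negative genes, with a median of 0.21. All 7 at an unadjusted p under 0.05 were positive, and 0 passed by limma. Their mean levels were 0.14, 0.13 and 0.27 in WR1, WR2 and WR3 and 0.05, -0.42 and -0.18 in C1, C2 and C3. C1 was the control nearest to the water-restricted mice, as in the 6 genes. The lists were chosen with earlier results of these data known, so their counts and levels are descriptions and no independent evidence.

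Markers of other kidney cells were measured on the same arrays. All 7 measured principal cell genes of the collecting duct (of 18 listed) had negative differences, with a median of -0.43. Their mean level was -0.31 to -0.19 in the water-restricted mice and 0.17 to 0.38 in the controls. Fxyd4, a sodium pump regulator, had -1.10 (SE 0.25, limma adjusted p = 0.553), the keratin Krt18 -0.87 (SE 0.20, limma adjusted p = 0.553), the transcription factor Gata3 -0.59 and the sialyltransferase St6gal1 -0.43. None passed by limma, with 3 at an unadjusted p under 0.05. On the mean of this list C1 lay with the other controls. All 3 erythroid genes were negative as well, with a median of -0.74, among them Hbb-b1 at -0.999, Slc4a1 at -0.74 and Alas2 at -0.24. Slc4a1 is also 1 of the 2 measured intercalated cell genes, beside Kit at -0.05, and without the array of WR2 against C2 that list had 1 positive and 1 negative gene. Interstitial genes were mixed, with 3 positive and 5 negative and a median of -0.23 (4 and 4 with -0.08 without the array of WR2 against C2), from Col3a1 at -0.56, Col1a1 at -0.46 and Pdgfrb at -0.31 to Dcn at 0.55.

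The remaining lists held few measured genes. The endothelial list had 4 with a median of 0.08, or -0.0059 without the array of WR2 against C2, namely Emcn at -0.01, Ehd3 at 0.18, Slc14a1 at -0.31 and Esam at 0.27. The podocyte genes were Podxl at 0.06, Wt1 at 0.28 and Cd2ap at -0.09, with a median of 0.06, or 0.16 without that array. Single genes stood for the thick ascending limb (Wfdc15b, -0.31), the thin limb (Cryab, 0.27), leukocytes (Lyz2, 0.40) and the urothelium (Upk1a, -0.13, or -0.26 without that array). None of the genes in these lists passed by limma. What share of the tubule segments and other cells each sample held was not measured, and its part in the differences of the 6 genes was not tested.

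**Figure D4:**
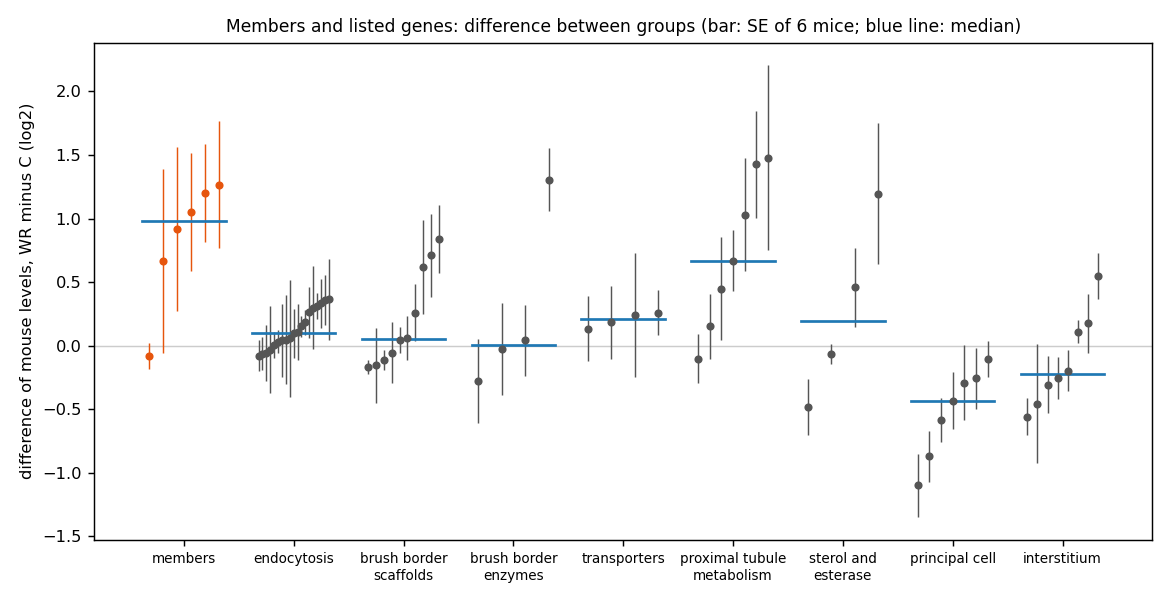
Difference of mouse levels between water-restricted and control mice (log2) for the 6 genes (orange) and for measured genes of 8 lists (grey), with the standard error over 6 mice as bars and the list median as a blue line. The median is 0.98 for the 6 genes, 0.10 for endocytosis, 0.67 for proximal tubule metabolism and -0.43 for principal cells.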

How the data were processed

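Per array, the authors deposited a log2 ratio between the channels for each of 31200 spots, on 12 arrays. How they corrected background and normalized, and which dye is the numerator, is not given in the sources used here. Genes came from the supplied platform annotation. The 2 adjacent spots of a clone were averaged to 15600 clones, of which 9191 had 1 gene, 254 had several and 6155 had none. Symbols of 9085 clones were looked up by Entrez identifier (table of GRCm38.p6, names only), and the mean over a gene's clones gave 6786 genes.

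Signs were changed on the 6 arrays where Alexa Fluor 647 marked the water-restricted mouse. Weighted least squares gave each mouse's level, with a dye term and a weight of 0.5 for arrays of a swapped pair. The SE of a difference comes from 3 levels per group. Group levels were tested with limma 3.58.1 in R 4.3.3. For mice within a group and for the dye term, limma was run on the 12 arrays, weighted equally. Both used Benjamini-Hochberg adjustment over all genes or clones at 0.05. The procedures were tested on simulated data. The members and lists were chosen with earlier results of these data known. Genes of a list were named where it had up to 6 measured, and otherwise the 4 largest differences, with 8 genes most like the mean of the 6. Calb1 was named besides, as a gene better known from another segment. Alternatives were the other reading of the sign, centring, scaling, weights, dye term, orientation, single spots, clone medians, robust eBayes, a mouse-number block, leaving out mice or 1 array, and leaving out clones of wide residual. With 3 mice per group, the number of animals limits the comparison of groups, and the number of arrays limits the technical precision.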

Additional observations from a re-analysis of the deposited data

Results flagged for a closer look

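Of the 16 sets of 6 arrays looked at (8 clones in each dye orientation), 1 held a value far from the others. Lrp2 clone 1 read 4.78 on the array of WR2 against C2, where the nearest of the 6 was 1.02, and the gap took 0.79 of the range. Chance gives about 1 such value in 20 sets. Both spots of the clone were high, at 5.14 and 4.42, and Lrp2 clone 2 read 0.49 on that array, whose SD over spots of 1.21 was the widest of the 12.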

How the results depend on the processing

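Under 19 alternatives that keep the sign by dye, the differences of Lrp2, Pdzk1, Slc22a7, Tmem174 and Ces1d were positive in all 19. Among these, the mouse-number block, robust eBayes, clone medians and dropping the dye term leave the differences unchanged by construction. They say nothing about how stable the differences are. The median of the 6 genes ran from 0.59 to 1.41, both ends from leaving out a control mouse. Ranges were 0.61 to 1.36 for Lrp2, 0.88 to 1.52 for Pdzk1, 0.04 to 1.32 for Slc22a7 (its 2 dye orientations alone), 0.57 to 1.45 for Tmem174, 0.96 to 1.66 for Ces1d and -0.18 to 0.07 for Cyp7b1. Read as already turned, the median was -0.033, with 2 of 6 genes positive, Lrp2 at -0.018, Tmem174 at -0.13, Ces1d at -0.10 and Lrp2 clone 2 at -0.17. The mouse numbers are names that pair no animals. With them as a replicate block, the median was 0.98 and 0 genes passed between groups. That count was 1 with the swapped pairs alone and 1 without clones of the widest residual, and 0 under the other alternatives run.

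The count of genes differing between mice of a group, 14, was 0 read as already turned, 6 with no dye term, 50 without the array of WR2 against C2, 45 without clones of the widest residual and 24 with swapped arrays weighing 0.5 in the test, the last chosen after seeing the data. Leaving out each mouse gave 0 to 5. For the dye term, 527 clones became 903 without that array, 1130 without clones of the widest residual, 1054 with weights of 0.5, and 1 to 2 without a mouse. The dye term of Slc22a7 kept its sign in all 13 alternatives by dye and its side of the threshold in 7, the exceptions being the 6 that leave out a mouse. Leaving out a mouse also removes arrays and so lowers the residual degrees of freedom. Signal over background could not be examined.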
